A study of Mus musculus with 94 samples.

Results

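Inguinal white fat (iWAT), the subcutaneous depot of the mouse groin, was compared between 6 and 2 weeks of recovery from diet-induced obesity. The libraries were chosen by their labels alone: 6 of mice in medium-term (6 weeks) and 6 of mice in short-term (2 weeks) regression, 12 of the 94 libraries of the series. All animals were male C57BL/6JBomTac mice that had been accustomed to a low-fat diet (D12450J). From 10 weeks of age the regression mice ate a high-fat diet (D12492) for 18 weeks and then the low-fat diet again for 2 or 6 weeks, so that they were 30 or 34 weeks old. Lean mice of the same ages, 6 per time, ate the low-fat diet throughout and were compared between the same 2 times. The series labels the libraries of a group as biological replicates from separately numbered mice; mice were housed 3 to an enclosure unless they fought, with cage mates not given in the sources used here. Poly(A) RNA of frozen tissue was sequenced, also from the epididymal depot (eWAT) of the same mice.

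White adipocytes store fatty acids as triglyceride, make part of them from glucose by de novo lipogenesis, and release them by lipolysis when energy is short. Insulin and dietary carbohydrate raise the lipogenic enzymes, largely through the transcription factors SREBP1 and ChREBP, and fasting or a high-fat diet lowers them. The inguinal depot also holds adipocytes that can turn thermogenic, and in losing weight fat tissue is known to draw in macrophages that take up lipid.

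Total counts ran from 7.76 to 34.3 M at 2 weeks (median 9.65 M) and from 8.89 to 15.2 M at 6 weeks (median 12.2 M). CPM gives a gene's counts per M counts (1 M as in these totals) of its library, with totals adjusted by TMM factors. The 10 adipocyte markers, led by genes such as Adipoq and Fabp4, summed to 11556 to 25371 CPM at 2 weeks and to 22251 to 26769 CPM at 6 weeks, none of them at 0. Libraries that stood apart in their groups were 2-week replicate 5 and 6-week replicate 6. In 2-week replicate 5 the adipocyte sum was the lowest. Its sums of 17 macrophage markers (8721 CPM, against 3573 to 4532 CPM in the other 5) and of progenitor and fibroblast markers (6013 CPM) were the highest. By a chi-square of counts, 6-week replicate 6 was at 58.1 to 107 per degree of freedom against the rest of its group. Pairs among that rest were at 12.8 to 34.9. B cell and lymph node markers were highest in 2-week replicate 4 (314 CPM). Skeletal muscle markers ran from 22.0 to 2871 CPM at 2 weeks and from 58.9 to 13670 CPM at 6 weeks, highest in replicate 6 of both groups. In bulk tissue, fewer cells of a type and less RNA per cell cannot be told apart.

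From 2 to 6 weeks on the low-fat diet, genes of fatty acid, triglyceride and cholesterol synthesis, glucose use and the citrate cycle rose in iWAT. Genes of macrophages, chemokines, matrix and the endoplasmic reticulum stress response fell. Lean mice moved over the same 4 weeks as well, to a degree that differed by gene list. Median log2 fold changes in regression and lean mice were -0.65 and -0.60 for extracellular matrix and -1.41 and -0.97 for pan-macrophage markers. They were 0.73 and 0.46 for pyruvate dehydrogenase and the citrate cycle, and 1.70 and 0.22 for de novo lipogenesis. Of 13899 genes tested, 1680 were higher at 6 weeks (12.1%) and 1950 lower (14.0%), 3630 in all (26.1%). Every call here and below is edgeR's quasi-likelihood test with a Benjamini-Hochberg adjusted p under 0.05. Values after ± are standard errors worked back from that test, as the absolute log2 fold change over the square root of its F statistic. In 1570 genes (11.3%) all 6 values of one time lay above all 6 of the other, 566 of them higher at 6 weeks (4.07%) and 1004 lower (7.22%), and 1377 of these were called (9.91%). The count was 2276 without 2-week replicate 5 and 1496 without 2-week replicates 4 and 5. Replicates 1 to 3 and 4 to 6 of each group carry mouse numbers from separate series, and fitted apart these gave 512 and 2403. The same 4 weeks in lean mice gave 828 genes higher (5.96%) and 860 lower (6.19%), 1688 in all (12.1%). Some lean libraries stood apart. Lean 2-week replicate 2 had the highest B cell and lymph node sum (1650.1 CPM) and the lowest adipocyte sum (10559 CPM) of its group, and the lean count was 622 without it. Lean 6-week replicates 4 and 6 had muscle sums of 32402 and 53219 CPM, and the count was 917 without the first and 594 without the second. Other lean libraries moved the count in both directions, to 2964 without lean 2-week replicate 3 and to 608 without lean 2-week replicate 1.

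**Figure D1:**
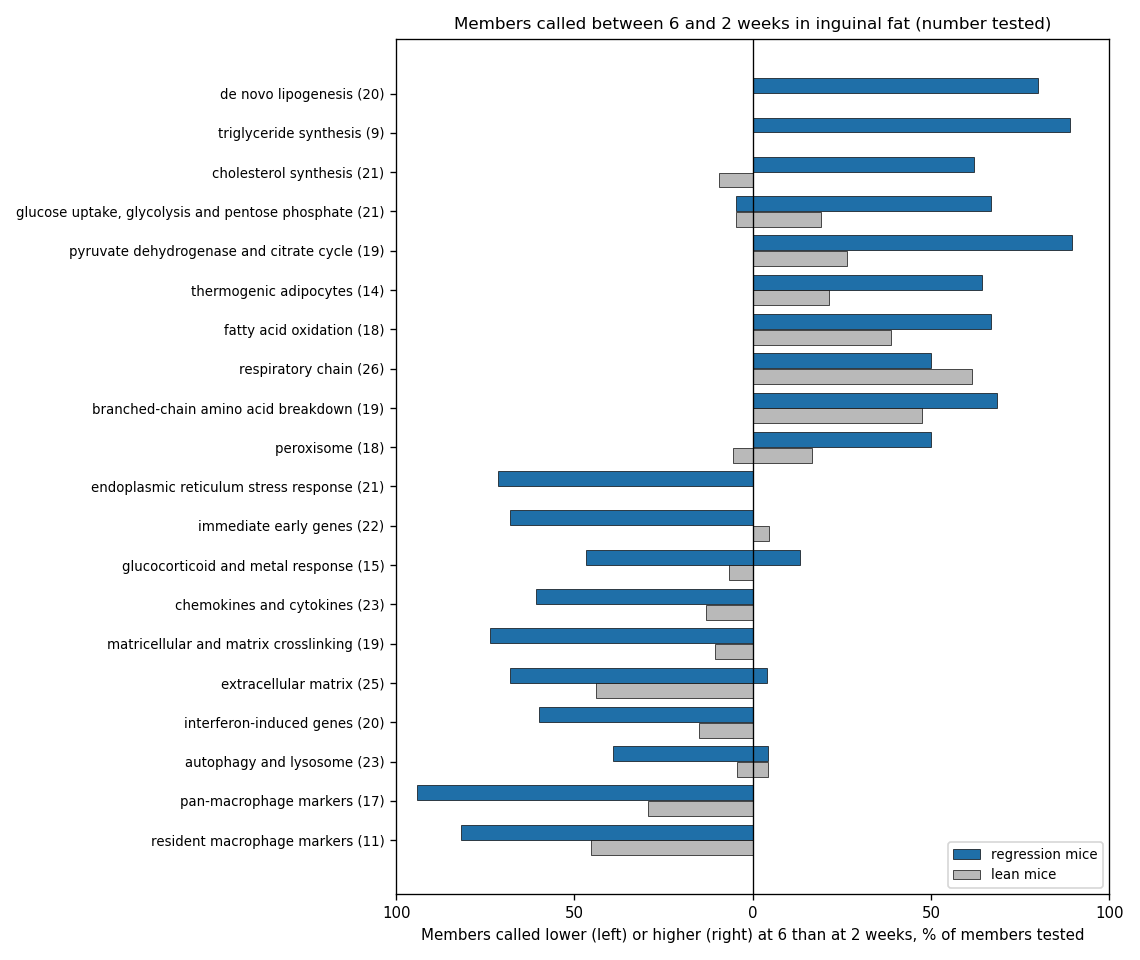
Share of the tested members of 20 gene lists called higher or lower at 6 than at 2 weeks, in % of members, for regression mice and for lean mice. De novo lipogenesis stands at 16 of 20 higher in regression mice and none in lean mice, whereas for the respiratory chain the lean bar (16 of 26) is longer than the regression bar (13 of 26).

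De novo lipogenesis had the highest median of the pathway lists: 16 of its 20 genes rose and none fell, with a median log2 fold change of 1.70 against 0.00 for all genes tested. In lean mice none of the 20 was called and the median was 0.22. Elovl6, which lengthens palmitate (mm10, chromosome 3, 129532355 to 129638495), stood at 18.7, 53.1 and 134 CPM (lowest, median and highest of 6) at 2 weeks and at 202, 983 and 2291 CPM at 6 weeks. The groups did not overlap, and the log2 fold change was 4.24 ± 0.56 (adjusted p = 1.13e-05). The lean medians were 2655 and 3349.9 CPM at 2 and 6 weeks, above both regression medians. Acss2, which makes acetyl-CoA from acetate (chromosome 2, 155517948 to 155585724), went from 19.8, 43.6 and 87.1 CPM to 86.0, 430.1 and 722 CPM. Only the highest earlier mouse and the lowest later mouse, replicate 6, overlapped (3.30 ± 0.43, adjusted p = 1.13e-05).

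Scd1, the main fatty acid desaturase of fat (chromosome 19, 44394455 to 44407879), took 1.57% to 4.39% of all counts at 2 weeks and 6.63% to 14.3% at 6 weeks. Its CPM did not overlap either (log2 fold change 1.97 ± 0.27, adjusted p = 1.13e-05). Acly, which makes acetyl-CoA from citrate (chromosome 11, 100476353 to 100528000), had 101, 187 and 400.2 CPM at 2 weeks and 246, 1713 and 2385 CPM at 6 weeks (3.02 ± 0.45, adjusted p = 4.20e-05). 5 of the 6 later mice were above all earlier mice, and the exception was replicate 6. This mouse held the most muscle signal of its group, and the part of that signal in its low Acly level was not tested. Fasn, the fatty acid synthase, went from 658, 2054 and 6558 CPM to 4984, 18087 and 26595 CPM (2.81 ± 0.46, adjusted p = 0.000121), again with replicate 6 as the low mouse at 6 weeks. Me1, a source of NADPH, rose by 2.66 ± 0.40, Scd2, a second desaturase, by 2.48 ± 0.37 and Acaca, acetyl-CoA carboxylase, by 2.22 ± 0.39. Of the regulators, Mlxipl, which encodes ChREBP, rose by 0.80 ± 0.25 (adjusted p = 0.0168), a call lost without 2-week replicate 5 (adjusted p = 0.0545) or without 6-week replicate 1 (adjusted p = 0.0513). Srebf1, which encodes SREBP1, was at 0.27 ± 0.25 (adjusted p = 0.435).

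**Figure D2:**
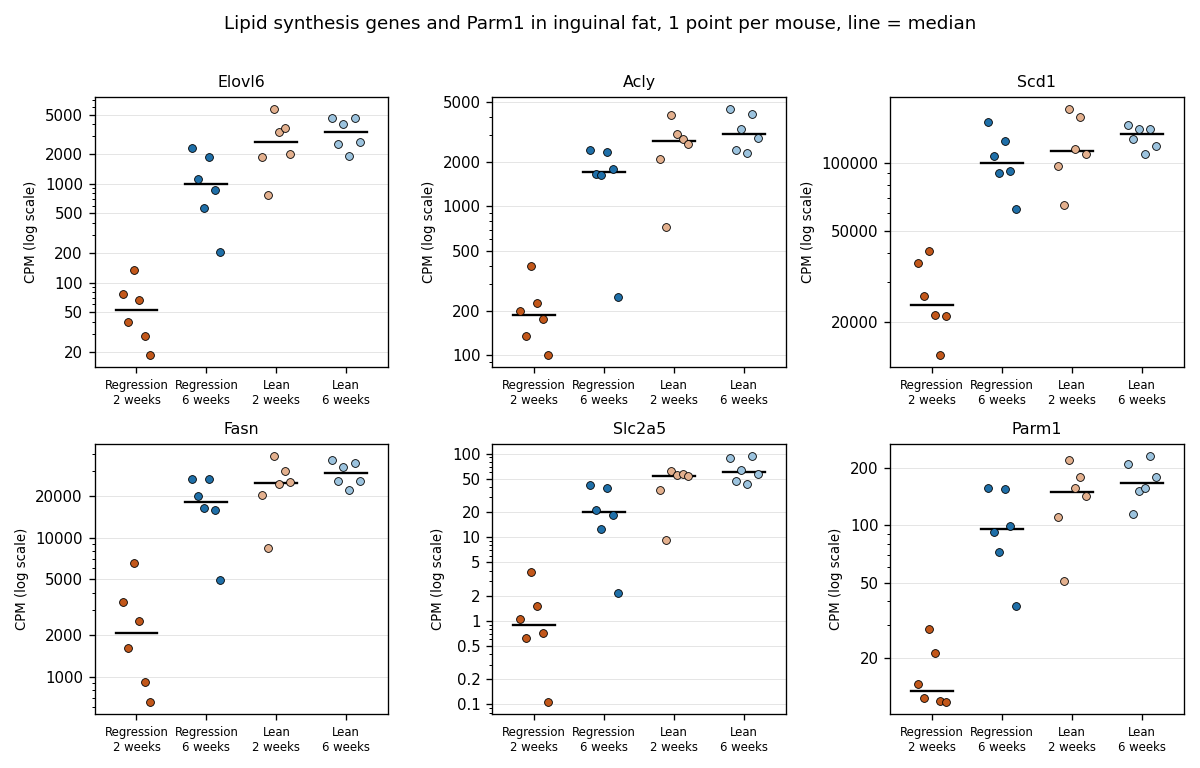
Levels of Elovl6, Acly, Scd1, Fasn, Slc2a5 and Parm1 in CPM on a log axis, with 1 point per mouse (replicates 1 to 6 from left to right) and the group median as a line. The 2-week regression mice have the lowest median in each panel; for Elovl6 their highest mouse (134 CPM) is below the lowest mouse at 6 weeks (202 CPM).

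Genes that supply and use new fatty acids rose too. In triglyceride synthesis 8 of 9 genes rose (median 0.81), with none called in lean mice (median 0.13); the count was 5 without 2-week replicate 5. Agpat2, which adds the second acyl chain to the glycerol backbone (chromosome 2, 26593057 to 26604417), went from 109, 211 and 397.4 CPM to 333, 779 and 1205 CPM (1.82 ± 0.32, adjusted p = 0.000177). The highest earlier mouse, replicate 3, was above the lowest later mouse. Dgat2, which makes the final triglyceride, rose by 1.27 ± 0.30 and Gpd1, which makes glycerol phosphate, by 1.02 ± 0.24. Slc2a5, a fructose transporter (chromosome 4, 150119283 to 150144169), had 0.107, 0.884 and 3.82 CPM at 2 weeks and 2.17, 19.9 and 42.4 CPM at 6 weeks. The ranges overlapped in 1 mouse of each group, and the log2 fold change was 4.04 ± 0.61 (adjusted p = 4.44e-05). The insulin-responsive glucose transporter Slc2a4 rose by 0.90 ± 0.22 and Pgd, of the pentose phosphate pathway, by 1.39 ± 0.27. Of the glucose uptake, glycolysis and pentose phosphate genes 14 of 21 rose and 1, Hk1, fell (median 0.83), against 4 and 1 in lean mice (median 0.35).

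In cholesterol synthesis 13 of 21 genes rose (median 0.73), and in lean mice none rose and 2 fell (median 0.03). Lss, the lanosterol synthase (chromosome 10, 76531588 to 76557138), went from 12.97, 18.8 and 24.8 CPM to 26.7, 59.2 and 86.6 CPM without overlap (1.68 ± 0.29, adjusted p = 0.000171). Pmvk (1.68 ± 0.28) and Nsdhl (1.63 ± 0.29), which act early and late in the pathway, rose as well. Without 2-week replicate 5 the list counted 8.

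Pyruvate dehydrogenase and the citrate cycle feed carbon into these pathways, and 17 of their 19 genes rose (median 0.73; lean 5, median 0.46). Pdhb, a subunit of pyruvate dehydrogenase, went from 43.2, 80.0 and 121 CPM to 109, 240.2 and 376 CPM (1.64 ± 0.27, adjusted p = 0.000135). The lowest later mouse, replicate 6, was within the earlier range and the other 5 were above it. Pcx, pyruvate carboxylase, rose by 1.54 ± 0.28 and Dlat, another subunit of the complex, by 1.44 ± 0.26; Pdk1, a kinase that inhibits the complex, rose too (1.24 ± 0.20). The respiratory chain counted 13 of 26 genes higher in regression mice (median 0.42) and 16 in lean mice (median 0.49). Fatty acid oxidation counted 12 of 18 (median 0.60; lean 7, 0.54) and branched-chain amino acid breakdown 13 of 19 (median 0.45; lean 9, 0.44). The skeletal muscle sum had a median of 1437 CPM in lean mice at 2 weeks and of 5854 CPM at 6 weeks (highest 53219 CPM), and its part in the lean counts was not tested. With terms for muscle and lymph node signal the respiratory chain counted 15 in regression mice. Without 2-week replicate 5 the counts were 14 for the citrate cycle, 8 for the respiratory chain, 9 for oxidation and 6 for amino acid breakdown. In replicates 1 to 3 alone they were 1, 0, 1 and 0, and in replicates 4 to 6 alone 19, 21, 12 and 16.

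Thermogenic genes rose from low levels, 9 of 14 with none lower (median 1.19; lean 3, median 0.57). Ucp1, the uncoupling protein of brown and beige adipocytes (chromosome 8, 83290352 to 83298452), had 0, 0.702 and 2.14 CPM at 2 weeks and 0.349, 12.2 and 31.9 CPM at 6 weeks, beside lean medians of 13.7 and 22.1 CPM. The ranges overlapped, and the log2 fold change was 4.11 ± 1.06 (adjusted p = 0.00433). Ucp1 was not called in replicates 1 to 3 alone (adjusted p = 0.0893) or by limma voom (adjusted p = 0.175, and 0.278 with runs of neighbouring mouse numbers as a random block). Ppargc1a, a coactivator of mitochondrial genes (chromosome 5, 51454250 to 51567726), went from 2.00, 9.02 and 11.2 CPM to 14.4, 18.2 and 23.4 CPM without overlap (1.22 ± 0.24, adjusted p = 0.000503), and it was higher in the older lean mice too (0.92, adjusted p = 0.0168). Cidea, a lipid droplet protein, rose by 1.87 ± 0.43 and Cpt1b, which brings fatty acids into mitochondria, by 2.20 ± 0.43. Elovl3, another elongase, had 5 counts in all 6 libraries at 2 weeks and 178 at 6 weeks. Muscle also expresses Cpt1b, and when the fit held terms for muscle and lymph node signal the list counted 9.

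Markers of adipocyte identity moved less. 3 of 10 were higher, Adipoq by 0.50 ± 0.13, the lipid droplet coat Plin1 by 0.52 ± 0.16 and the lipase Lipe by 0.56 ± 0.16, and 3 of 10 were higher in lean mice. Plin1 was not called without 2-week replicate 5 (0.40, adjusted p = 0.0720). The leptin gene Lep had 689, 1075 and 1649 CPM at 2 weeks and 691, 922 and 1804 CPM at 6 weeks and was at -0.14 ± 0.36 (adjusted p = 0.811). Pparg, the master regulator of adipocytes, was at 0.42 ± 0.20 (adjusted p = 0.116). Fabp4, Mest, Irs1 and Pnpla2 were not called either. Sfrp5, a secreted Wnt inhibitor, fell from 177, 252 and 523 CPM to 48.0, 87.4 and 258 CPM (-1.32 ± 0.41, adjusted p = 0.0161), with lean medians of 30.4 and 38.0 CPM, and was not called without 2-week replicate 6 (-1.06, adjusted p = 0.0568). Of the genes with the largest changes and no overlap, Aspg, an asparaginase, rose by 3.70 ± 0.62, Ncan, a proteoglycan, by 3.20 ± 0.52, Parm1 by 2.60 ± 0.37 and Pm20d1, which joins fatty acids to amino acids, by 2.01 ± 0.26.

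The endoplasmic reticulum (ER) stress response raises chaperones and disulfide isomerases when unfolded protein builds up in that compartment. 15 of its 21 genes fell and none rose (median -0.47), with none called in lean mice (median -0.07). The ER stress element, CCAAT followed by any 9 bases and CCACG, is the known site of ATF6 with NF-Y, and it overlaps a CCAAT box by its construction. It was searched on both strands of the 250 bases before each RefSeq start (GRCm38.p6). It was found in 7 of the 19 list genes with a promoter searched (36.8%) and in 17 of 10560 such genes among all genes tested (0.161%). The list was made of genes of this response, so these shares describe the list and not the change between 6 and 2 weeks. The CCAAT box alone was found in 16 of the 19 (84.2%) and in 39.9% of the 10560. 4 promoters of genes that fell are printed to show the shared element, in capitals, 5′ to 3′ on the strand of the gene; a match is a description of the sequence and not a measured site.
Hspa5 (chr2:34771840-34772089, plus strand): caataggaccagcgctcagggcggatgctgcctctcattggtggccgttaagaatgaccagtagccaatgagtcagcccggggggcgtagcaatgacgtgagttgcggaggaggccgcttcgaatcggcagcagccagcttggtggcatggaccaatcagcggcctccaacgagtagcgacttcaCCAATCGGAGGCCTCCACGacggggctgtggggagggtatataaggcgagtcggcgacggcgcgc
Hsp90b1 (chr10:86705445-86705694, minus strand): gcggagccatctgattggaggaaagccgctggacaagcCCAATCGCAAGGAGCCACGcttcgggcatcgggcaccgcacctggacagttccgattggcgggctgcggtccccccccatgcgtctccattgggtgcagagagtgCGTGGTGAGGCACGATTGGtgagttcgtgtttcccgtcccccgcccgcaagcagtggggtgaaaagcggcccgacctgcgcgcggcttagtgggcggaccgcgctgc
Creld2 (chr15:88819396-88819645, plus strand): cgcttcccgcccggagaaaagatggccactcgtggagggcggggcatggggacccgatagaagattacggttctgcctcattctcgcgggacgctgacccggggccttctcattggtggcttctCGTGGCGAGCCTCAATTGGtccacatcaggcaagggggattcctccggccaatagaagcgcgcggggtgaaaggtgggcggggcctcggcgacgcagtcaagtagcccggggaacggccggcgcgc
Pdia6 (chr12:17266339-17266588, plus strand): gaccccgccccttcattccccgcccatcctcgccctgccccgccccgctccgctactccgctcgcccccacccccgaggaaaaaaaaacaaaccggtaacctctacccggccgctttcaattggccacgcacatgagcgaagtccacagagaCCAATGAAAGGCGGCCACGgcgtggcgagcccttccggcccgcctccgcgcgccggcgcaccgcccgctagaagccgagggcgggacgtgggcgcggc

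In Hspa5 the element lies 65 to 47 bases before the start and in Pdia6 98 to 80, both on the strand of the gene. Creld2 holds it on the opposite strand, 126 to 108 bases before the start, and Hsp90b1 holds 2, at 212 to 194 on its own strand and at 107 to 89 on the opposite strand.

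Hspa5, the chaperone BiP, had 399.3, 564 and 1259.9 CPM at 2 weeks and 318, 364 and 394.9 CPM at 6 weeks, beside lean medians of 410.7 and 363 CPM. All 6 earlier mice were above all later mice, and the log2 fold change was -0.87 ± 0.15 (adjusted p = 0.000171). Manf, a protein secreted under ER stress (chromosome 9, 106838312 to 106891979), went from 34.6, 54.5 and 114 CPM to 26.3, 28.6 and 31.9 CPM, also without overlap (-1.12 ± 0.17, adjusted p = 4.20e-05). Pdia3, a disulfide isomerase, had 146, 181 and 278 CPM and then 111, 117 and 119.8 CPM (-0.72 ± 0.12). Its 6 later mice lay closer together than the earlier ones. Creld2 (-1.08 ± 0.18), Hyou1 (-0.70 ± 0.12), Hsp90b1 (-0.61 ± 0.11) and Pdia6 (-0.54 ± 0.11) fell as well. In 9 of the 21 genes the groups did not overlap. The list counted 14 without 2-week replicate 5, 13 in replicates 1 to 3 alone and 9 in replicates 4 to 6 alone.

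**Figure D3:**
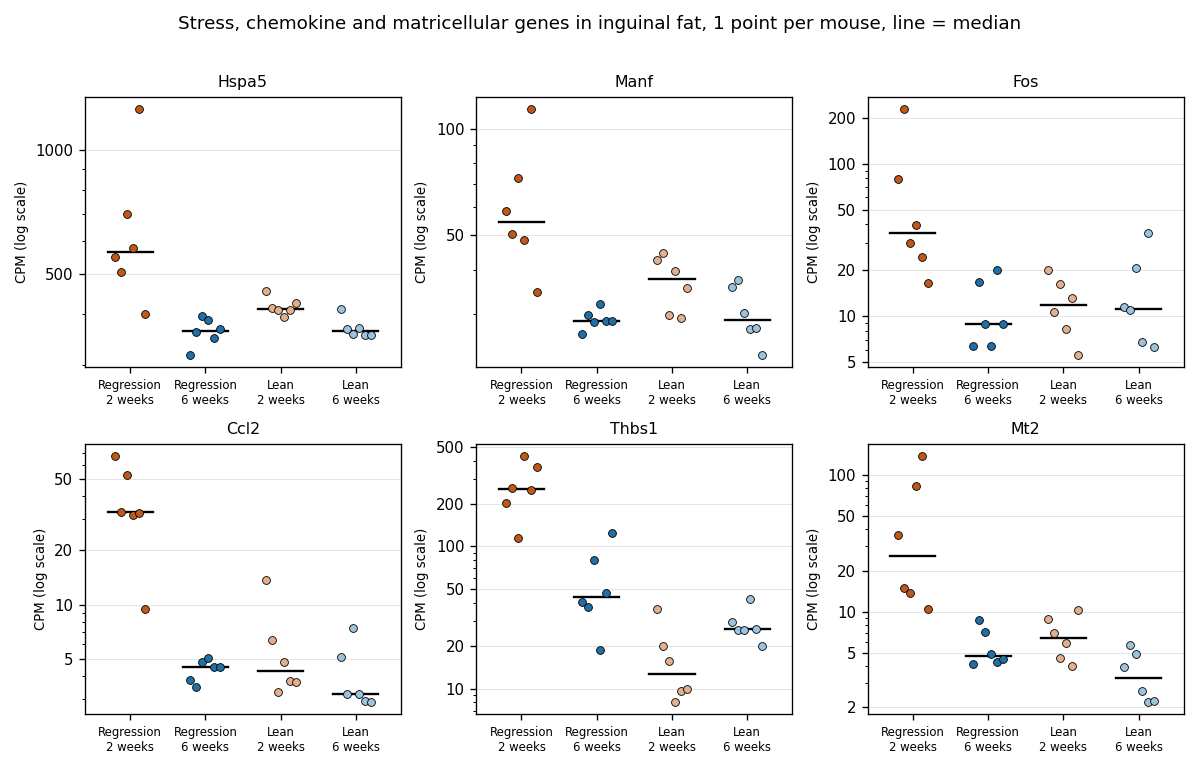
Levels of Hspa5, Manf, Fos, Ccl2, Thbs1 and Mt2 in CPM on a log axis, with 1 point per mouse (replicates 1 to 6 from left to right) and the group median as a line. For Hspa5 the 2-week regression mice (399.3 to 1259.9 CPM) lie above the 6-week mice (318 to 394.9 CPM), and the spread at 2 weeks is wide for Fos (16.4 to 229 CPM).

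Immediate early genes encode factors that cells switch on within minutes of a stimulus. 15 of 22 fell and none rose (median -0.77); in lean mice none fell and 1, Nr4a2, rose (median -0.31). Fos had 16.4, 34.8 and 229 CPM at 2 weeks and 6.31, 8.84 and 19.98 CPM at 6 weeks (-2.64 ± 0.57, adjusted p = 0.000988). The highest value came from 2-week replicate 2, and the lowest earlier mouse was within the later range. Junb, its partner in the AP-1 factor, fell by 1.53 ± 0.35 on the log2 scale and Jund by 0.61 ± 0.12. The list counted 10 genes in replicates 1 to 3 alone and 1 in replicates 4 to 6 alone. Of the glucocorticoid and metal response genes 7 of 15 fell and 2 rose (median -0.60; lean 1 lower). Mt2, a metal-binding metallothionein (chromosome 8, 94172664 to 94173568), went from 10.4, 25.6 and 137 CPM to 4.18, 4.74 and 8.65 CPM without overlap (-3.13 ± 0.49, adjusted p = 8.50e-05; -2.49 without 2-week replicate 5), and Mt1 fell by 1.45 ± 0.25 on the log2 scale. Fkbp5, a target of the glucocorticoid receptor, was lower in regression mice (-1.54 ± 0.27) and in lean mice (-1.31 ± 0.27, adjusted p = 0.00698).

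Chemokine and cytokine genes fell, 14 of 23 with none higher (median -1.74; lean 3 lower, median -0.56). Ccl2, which draws monocytes into tissue (chromosome 11, 82035571 to 82037453), had 9.43, 32.6 and 66.8 CPM at 2 weeks and 3.46, 4.50 and 5.06 CPM at 6 weeks, with lean medians of 4.27 and 3.18 CPM. The groups did not overlap, and the log2 fold change was -3.11 ± 0.51 (adjusted p = 0.000123). Ccl7, a related chemokine, went from 6.11, 65.5 and 88.5 CPM to 3.92, 4.65 and 5.61 CPM (-3.59 ± 0.59), and Il1rn, the interleukin 1 receptor antagonist, fell by 3.77 ± 0.88 on the log2 scale. Ptx3, a soluble pattern recognition protein, fell by 3.26 ± 0.57 (-2.66 without 2-week replicate 5). Of the interferon-induced genes 12 of 20 fell (median -0.55; lean 3, -0.52), for example Oasl2 (-1.25 ± 0.29) and Stat2 (-0.87 ± 0.18). That list counted 6 without 2-week replicate 5 and 0 without 2-week replicates 4 and 5.

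Of the pan-macrophage markers 16 of 17 fell in regression mice (median -1.41) and 5 in lean mice (median -0.97). Their sum ran from 3573 to 8721 CPM at 2 weeks (median 4043 CPM) and from 1492 to 2591 CPM at 6 weeks (median 2023 CPM), and 15 of the 17 did not overlap. Cd68, a lysosomal protein of phagocytes (chromosome 11, 69664213 to 69666153), had 104, 112 and 279 CPM and then 27.0, 39.2 and 54.1 CPM (-1.86 ± 0.40, adjusted p = 0.000988; -1.55 without 2-week replicate 5). Trem2, a lipid receptor of macrophages (chromosome 17, 48346401 to 48354147), went from 17.2, 29.5 and 58.1 CPM to 2.88, 5.24 and 11.3 CPM (-2.58 ± 0.66, adjusted p = 0.00418). Neither gene overlapped between the times. Of the lipid-associated macrophage markers 12 of 17 fell, and 2, Lpl and Fabp5, which adipocytes also express, rose. Of the resident macrophage markers 9 of 11 fell (median -1.01; lean 5, -0.76). Without 2-week replicate 5 these 3 lists counted 12, 10 and 6, and in replicates 1 to 3 alone 5, 2 and 1. Of the 10 neutrophil markers 5 were tested and 4 fell, with none called in lean mice. In 1 of the 5 the groups did not overlap. Retnlg, Ngp, Camp, Ltf and Mmp8 were not tested. The neutrophil sums overlapped, at 28.7 to 124 CPM at 2 weeks and 24.9 to 46.2 CPM at 6 weeks. The macrophage sum moved with each list that fell, and its part in the fall of the ER stress, immediate early and matrix genes was not tested.

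**Figure D4:**
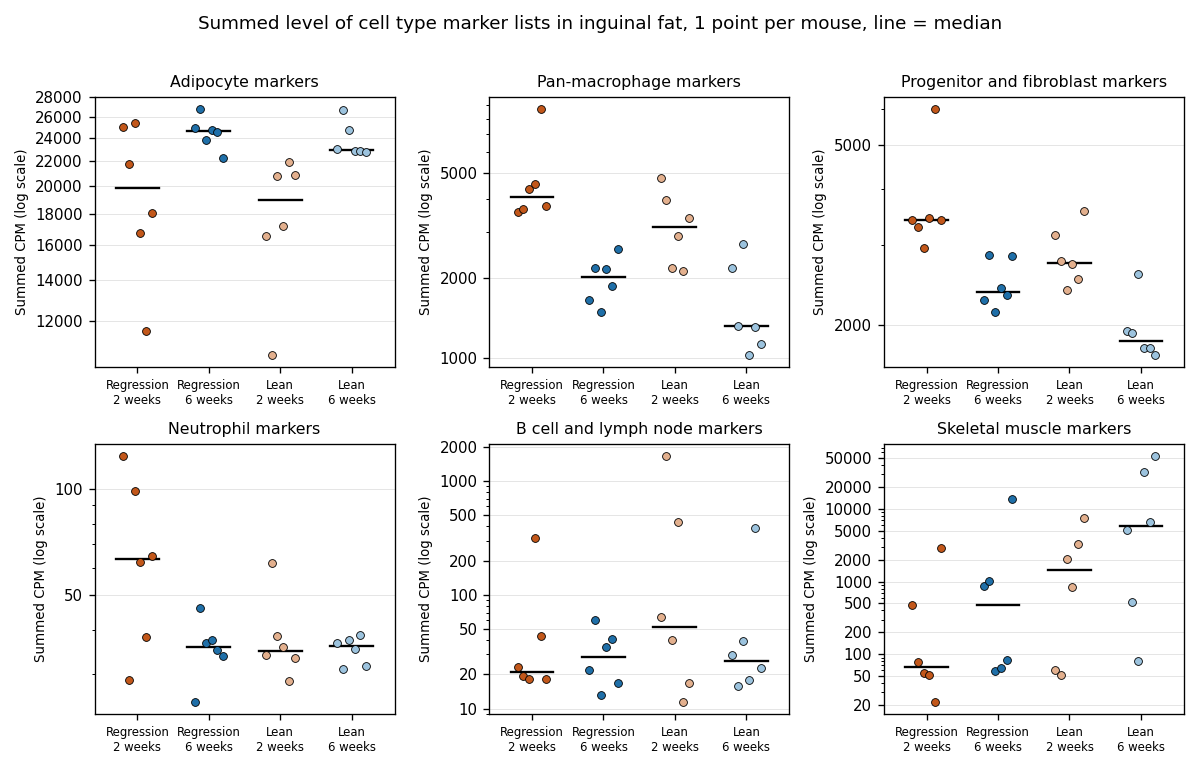
Summed CPM of 6 marker lists on a log axis, with 1 point per mouse (replicates 1 to 6 from left to right) and the group median as a line. Pan-macrophage sums at 2 weeks of regression (3573 to 8721 CPM, the highest from replicate 5) lie above those at 6 weeks (1492 to 2591 CPM), and muscle sums vary widely within each group.

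Matrix genes fell, with fewer calls without 2-week replicate 5. Of the matricellular and crosslinking genes 14 of 19 fell with none higher (median -1.07; lean 2, -0.23), and 10 were called without that library. Thbs1, the matrix glycoprotein thrombospondin (chromosome 2, 118111876 to 118127133), went from 115, 252 and 430.7 CPM to 18.6, 43.7 and 124 CPM, with lean medians of 12.7 and 26.1 CPM. 1 later mouse, replicate 6, was above the lowest earlier mouse, and the log2 fold change was -2.21 ± 0.47 (adjusted p = 0.000967). Timp1, an inhibitor of metalloproteinases (chromosome X, 20870166 to 20874735), went from 5.15, 8.62 and 59.8 CPM to 0.436, 0.878 and 1.31 CPM without overlap (-4.26 ± 0.72; -3.27 without 2-week replicate 5, which held the highest value). Cthrc1, a secreted protein of matrix-making cells, fell by 4.11 ± 0.85 on the log2 scale (-2.76 without that library). Of the extracellular matrix genes 17 of 25 fell and Col15a1 rose (median -0.65; lean 11 lower, -0.60), while 4 were lower without 2-week replicate 5 and 1 without 2-week replicates 4 and 5. Col1a1, a chain of type I collagen, went from 662, 1232 and 4307 CPM to 404.6, 575 and 652 CPM (-1.55 ± 0.40, adjusted p = 0.00429); without 2-week replicate 5 it was -0.96 (adjusted p = 0.064). Its groups did not overlap. Progenitor and fibroblast markers counted 9 lower and 1 higher of 16, and 3 lower without that library.

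Set against lean mice of the same age, the regression mice differed in 2614 genes at 2 weeks (18.8%; 9.44% higher and 9.37% lower) and in 144 at 6 weeks (1.04%; 0.554% higher and 0.482% lower). These comparisons use the same regression libraries, so values are given side by side. Neither count was refitted with a library left out or with terms for muscle and lymph node signal. All 20 lipogenic genes were below the lean level at 2 weeks and none was called at 6 weeks, where their median was -0.68. Scd1 was at -2.16 ± 0.27 and then -0.32 ± 0.26 (adjusted p = 0.556). Elovl6 was at -5.57 ± 0.60 and then -1.56 ± 0.50 (adjusted p = 0.0991), and Acly at -3.64 ± 0.46 and then -0.97 ± 0.42 (adjusted p = 0.211). The absence of calls at 6 weeks thus does not show a return to the lean level. The ER stress list counted 13 of 21 genes above lean at 2 weeks and none at 6 weeks, and the matricellular list 14 of 19 and then 1, Timp3. Ccl2 was at 2.65 ± 0.51 and then 0.08 ± 0.51. At 6 weeks 3 glucose genes were below lean, Gpi1 (-0.74), Aldoa (-1.01) and Pkm (-0.97), all of glycolysis. The skeletal muscle sum moved with them, at medians of 481.1 CPM in regression and 5854 CPM in lean mice (muscle markers median -2.57), and its part in this was not tested.

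Whether the change over the 4 weeks differed between regression and lean mice was tested by the difference of the 2 differences. It was called in 30 of 13899 genes (0.216%), 14 more positive (0.101%) and 16 more negative (0.115%) in regression mice, with 1667 at an unadjusted p under 0.05. 5 were lipogenic genes, namely Elovl6 (4.01 ± 0.72, adjusted p = 0.0164), Acss2 (2.97 ± 0.57), Acly (2.67 ± 0.60), Scd2 (2.55 ± 0.50) and Scd1 (1.85 ± 0.37). Slc2a5 (3.52 ± 0.77) and Ncan (3.07 ± 0.69) were also more positive. Cxcl1, a neutrophil attractant (-3.93 ± 0.90), Ptx3 (-3.41 ± 0.78) and Thbs1 (-2.97 ± 0.67) were more negative. In 5 of the 30 genes the change was larger in lean than in regression mice, namely Stard4 (-1.15 in lean and 0.37 in regression mice), Lyar (0.58 and -0.20), Naca (0.55 and -0.47), Slc35b1 (0.50 and -0.33) and Eif1 (0.38 and -0.09). Stard4, Lyar and Eif1 were not called in regression mice. No gene of the ER stress, immediate early or pan-macrophage lists was called by edgeR in this test. The count was 145 with DESeq2 and 0 with runs of neighbouring mouse numbers as a random block.

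The regression and lean comparisons share no library. 253 genes rose in both, which is 15.1% of the 1680 and 30.6% of the 828, and 483 fell in both, 24.8% of the 1950 and 56.2% of the 860. Of all genes tested, 12.1% rose and 14.0% fell in regression mice, and 5.96% rose and 6.19% fell in lean mice. 2 genes were called in opposite directions. Of the 3630 genes called in regression mice, 3221 had the same sign in lean mice (88.7%). That share was not computed over all genes tested, across which the log2 fold changes of the 2 comparisons had a Pearson r of 0.64. Over all 3630 genes the median absolute log2 fold change was 0.57 in regression mice and 0.30 in lean mice. The genes were chosen by their calls in regression mice, which favours the regression value, so these medians do not compare the size of the changes. Age and anything else that differed between the 2 times for both diets cannot be told apart.

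In eWAT of the same mice 686 of 14323 genes were called between 6 and 2 weeks (4.79%; 2.79% higher and 2.0% lower). The difference between the depots, with mouse as a block, was called in 177 of 14749 genes (1.2%), 33 more positive (0.224%) and 144 more negative (0.976%) in iWAT. In eWAT 12 of 20 lipogenic genes rose, for example Elovl6 (3.77 ± 0.55) and Acly (2.95 ± 0.48), and 13 of 21 ER stress genes fell; no gene of either list was called as different between depots. Ucp1 was at -0.36 ± 0.85 in eWAT and differed between depots by 4.27 ± 0.99 (adjusted p = 0.0221). Cpt1b differed by 2.52 ± 0.54 and Ppargc1a by 1.19 ± 0.30. The 17 skeletal muscle markers had a median difference between depots of 1.81 with none called, and 8 of them were tested in eWAT. No fit of the depot difference held a term for muscle signal, and its part in the Cpt1b and Ppargc1a differences was not tested. Mt2 was at -0.57 ± 0.31 in eWAT and differed by -2.31 ± 0.45 (adjusted p = 0.00816). Among the inflammatory genes Ccl7 differed by -2.51, Ptx3 by -2.68 and Slfn4, an interferon-related gene of myeloid cells, by -4.60. On the 24 libraries of the 2 groups alone the count was 97, and it was 0 without 6-week replicate 1 or without 6-week replicate 5 (edgeR; 1911 and 1908 genes at an unadjusted p under 0.05).

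**Figure D5:**
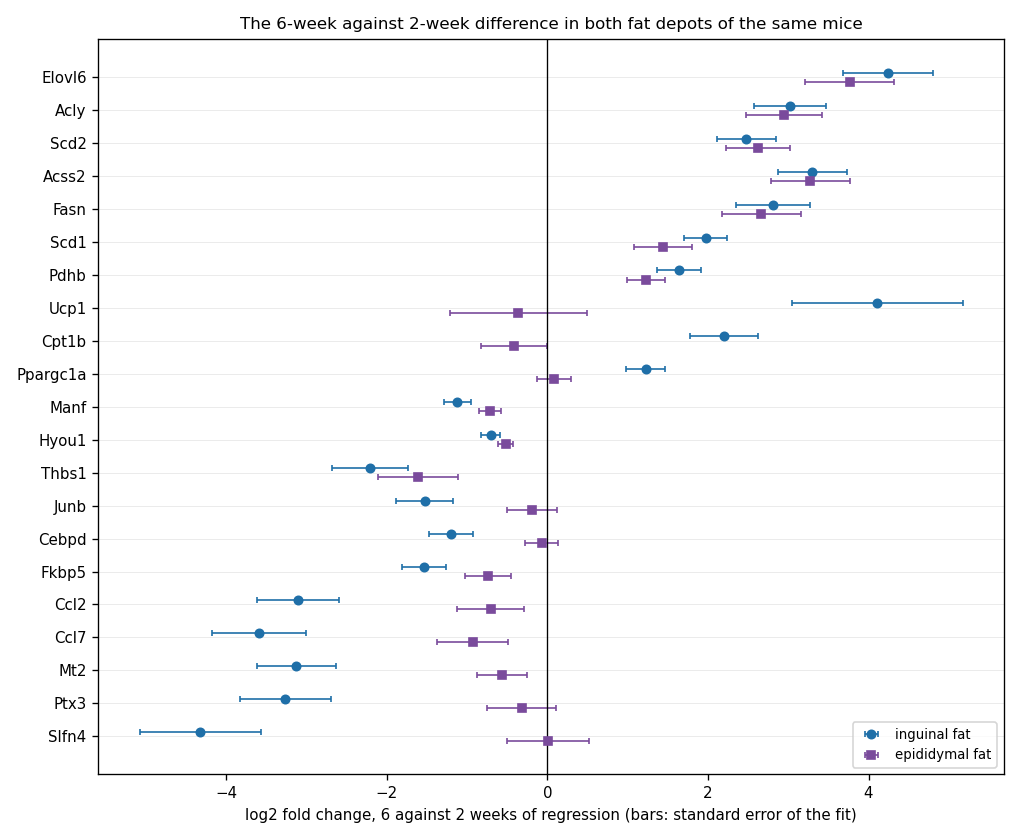
Log2 fold change between 6 and 2 weeks of regression (points) with the standard error worked back from the test (bars) for 21 genes in inguinal and in epididymal fat. Elovl6 and Acly lie close together in both depots, whereas Ucp1 (4.11 against -0.36) and Mt2 (-3.13 against -0.57) lie apart.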

How the data were processed

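Per the labels, poly(A) libraries were read as paired ends on an Illumina instrument. The authors deposited raw counts, whole numbers for each gene symbol, without scaling. STAR 2.4.1c, mm10, R 4.2.2 and DESeq2 1.38.3 are named in the submitters' processing notes, with counter, annotation and strandedness not given in the sources used here; overlapping, antisense or near-identical genes may share reads. Replicates were checked for duplicates by a chi-square of their counts, using genes with at least 20 counts in the pair; none agreed within sampling noise.

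All 47 iWAT libraries entered 1 fit with edgeR 4.0.16 in R 4.3.3 (TMM, filterByExpr, quasi-likelihood F-test, two-sided), so that all groups share 1 estimate of spread. The depot difference was fitted over 94 libraries with mouse as a block. Gene positions are from GENCODE M21 (mm10) and promoters from RefSeq (GRCm38.p6).

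The comparison, the 46 gene lists and the named genes were chosen with earlier results of these data known. Named genes are the 12 largest rises and 12 largest falls among called genes without overlap and with a mean of at least 5 CPM, the 3 called members with the smallest p in each pathway list with at least 3 calls, and a set of reference genes, 119 in all. Other list members, and genes of the test between regression and lean mice, were named as examples after their values were seen. Alternatives were DESeq2 1.42.0, edgeR with the DESeq2 size factors, dropping the count filter, fitting the compared groups alone, a block for replicate number, mouse number series (as a term, or each alone), terms for muscle and lymph node signal, a random block for runs of neighbouring mouse numbers (limma 3.58.1), and each library left out. Leaving out 2-week replicates 4 and 5 together was chosen after seeing the data. The fit was tested on simulated data.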

Additional observations from a re-analysis of the deposited data

Results flagged for a closer look

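Values of single mice were checked in 238 groups of 6, and in 34 the highest or lowest mouse was farther from the nearest other mouse than Dixon's 95% limit allows. Chance gives about 1 in 20 such groups where values are independent and normally distributed. Here CPM were used without taking logs and the groups come from the same libraries, so the 34 cannot be set against that rate. In 2-week replicate 2 this was Fos (229 CPM, next 79.7 CPM). In 2-week replicate 3 this was Thrsp (1103 CPM, next 578 CPM). In 2-week replicate 5 this was Timp1 (59.8 CPM, next 15.5 CPM), Cthrc1 (88.1 CPM, next 17.0 CPM), Prg4 (144 CPM, next 53.8 CPM), Sphk1 (32.1 CPM, next 13.2 CPM), Adam8 (109 CPM, next 52.7 CPM) and Tlr13 (96.0 CPM, next 36.1 CPM). Also in 2-week replicate 5 were Mgll (939 CPM, next 1378 CPM), Pdia3 (278 CPM, next 191 CPM), Hyou1 (174 CPM, next 114 CPM), Fkbp5 (336 CPM, next 148 CPM), Loxl3 (54.0 CPM, next 29.9 CPM) and Col1a2 (4769 CPM, next 1851 CPM). Also in 2-week replicate 5 were Col1a1 (4307 CPM, next 1430.4 CPM), Tgfb1 (115 CPM, next 84.1 CPM), Ccl6 (1123 CPM, next 428.8 CPM), Hexa (329 CPM, next 176 CPM), Ctsa (222 CPM, next 162 CPM) and Gla (38.7 CPM, next 22.9 CPM). The last in 2-week replicate 5 was Cd68 (279 CPM, next 145 CPM). In 2-week replicate 6 this was Marc1 (23.6 CPM, next 11.9 CPM). In 6-week replicate 1 this was Elovl3 (8.48 CPM, next 3.33 CPM). In 6-week replicate 3 this was Abcd2 (1193 CPM, next 1075 CPM) and Lep (1804 CPM, next 1037 CPM). In 6-week replicate 4 this was Lrtm1 (21.4 CPM, next 9.31 CPM) and Slfn4 (8.25 CPM, next 2.37 CPM). In 6-week replicate 6 this was Pm20d1 (4.84 CPM, next 10.4 CPM), Ptx3 (5.13 CPM, next 3.14 CPM), Npr1 (150.3 CPM, next 118 CPM), Cebpd (96.5 CPM, next 54.2 CPM), P4ha1 (42.4 CPM, next 31.2 CPM) and Pparg (212 CPM, next 243 CPM). The last in 6-week replicate 6 was Acly (246 CPM, next 1625 CPM).

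The difference between 6 and 2 weeks was not the same in regression and lean mice by edgeR's test of the difference of differences, with adjusted p from 0.0164 to 0.0483 over 30 genes. More positive in regression mice, as a log2 difference, were Tchh (4.29), Elovl6 (4.01), Slc2a5 (3.52), Ncan (3.07), Acss2 (2.97), Acly (2.67), Scd2 (2.55), Parm1 (2.32), Scd1 (1.85), Pm20d1 (1.58), Trhde (1.54), Stard4 (1.52), Nsun3 (0.89) and Cdyl2 (0.72). More negative in regression mice, as a log2 difference, were Cxcl1 (-3.93), Ptx3 (-3.41), Thbs1 (-2.97), Ccrn4l (-1.40), Ctla2a (-1.12), Rpl28 (-1.11), Naca (-1.01), Enc1 (-0.95), Tmem39b (-0.94), Cstb (-0.89), Slc35b1 (-0.83), Lyar (-0.78), Prpf3 (-0.64), Snrpb (-0.49), Eif1 (-0.47) and Morf4l1 (-0.46). Tchh, a gene of hair follicles, stood at 51.4 CPM in 6-week replicate 3, which also had the highest sum of skin and hair markers (263 CPM). Between depots, with mouse as a block, edgeR's test called 16 of the named genes, with adjusted p from 0.00717 to 0.0445. More positive in iWAT, as a log2 difference, were Ucp1 (4.27), Aspg (2.55), Cpt1b (2.52), Ppargc1a (1.19) and Ddo (1.07). More negative in iWAT, as a log2 difference, were Slfn4 (-4.60), Prg4 (-3.36), Timp1 (-2.81), Ptx3 (-2.68), Ccl7 (-2.51), Mt2 (-2.31), Ctgf (-1.33), Junb (-1.24), Cebpd (-1.17), Stat2 (-0.83) and Fkbp5 (-0.81).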

How the results depend on the processing

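The 3630 genes called between 6 and 2 weeks became 512 in replicates 1 to 3 alone, 2403 in replicates 4 to 6 alone, 2398 with a random block for runs of mouse numbers and 1496 without 2-week replicates 4 and 5; leaving out 1 library gave 2276 (without 2-week replicate 5) to 3813. DESeq2 (3991), its size factors (3654), no count filter (3398) and the other alternatives stayed within 1.5 times. In lean mice the 1688 became 987 on the compared groups alone, 1025 with terms for muscle and lymph node signal, 28 with the random block, 3 in replicates 4 to 6 and 0 in replicates 1 to 3 (edgeR; 2920 at an unadjusted p under 0.05), and 594 to 2964 with 1 library left out (without lean 6-week replicate 6 and without lean 2-week replicate 3); it was also over 1.5 times lower without lean 2-week replicates 1 (608), 2 (622), 4 (962) or 6 (1012) and lean 6-week replicates 2 (1103) or 4 (917). The 30 genes whose change differed between regression and lean mice became 145 with DESeq2, 121 with muscle and lymph node signals, 59 with the mouse series as a term, 11 in limma voom with no random block, 11 without 2-week replicates 4 and 5, 4 with no count filter, and 0 with the random block or in either series alone (1045, 1570 and 1356 unadjusted), and 2 to 106 with 1 library left out (without lean 6-week replicate 2 and without 2-week replicate 6), over 1.5 times from 30 for each library except 2-week replicate 3 (43). The 1.2% of genes that differed between depots became 2.88% with DESeq2 and 0.707% (97 genes) on the 24 compared libraries, and there 0% to 1.47% with 1 mouse left out (0 without 6-week replicate 1 or 5; edgeR, 1911 and 1908 genes at an unadjusted p under 0.05); leaving out single mice from all 94 libraries was not run. The cause was not tested.

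With the replicate number as a block the counts were 1627 in lean mice, 51 for the difference between regression and lean mice and 55 between depots (0.373%), and the count in regression mice stayed within 1.5 times. The numbers were not taken as pairs, since the labels do not tie them and replicate 2 had a negative correlation; deviations of same-numbered mice at 2 and 6 weeks correlated at 0.199, -0.0857, 0.172, 0.154, 0.173 and 0.588 for replicates 1 to 6, and only replicates 1 and 6 matched best with their own number, a hint from the data and not from the design. Of the 119 named genes 112 were called, 42 of them under every alternative, and no called gene changed sign. Of the 7 not called, Irs1 (-0.0733) and Srebf1 (-0.165) changed sign in replicates 1 to 3 alone. Depth limits genes such as Elovl3 and Ucp1, which had few counts at 2 weeks.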

Other observations

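Some further lists are given here. Of the clock genes 5 of 18 rose, among them Nr1d1 (0.79 ± 0.18) and Nr1d2 (0.47 ± 0.15), which encode the repressors REV-ERB alpha and beta, and Nfil3 fell (-1.48 ± 0.27). In lean mice 2 rose, and the count of rises was 1 without 2-week replicate 5. Peroxisome genes rose in 9 of 18 cases (median 0.45; 6 without that library), for example Abcd2 (0.65 ± 0.15), a transporter of very long fatty acids. Of the autophagy and lysosome genes 9 of 23 fell, for example the hydrolases Hexa (-0.75 ± 0.16) and Gla (-0.96 ± 0.22), and Ulk1 rose; the macrophage sum fell at the same time, and its part in this was not tested. Hmox1, which breaks down haem, fell by 2.17 ± 0.51 on the log2 scale, while Sod2, the mitochondrial superoxide dismutase, rose by 0.65 ± 0.17. Of the insulin signalling genes 2 of 16 rose and 3 fell (median 0.10), close to the 12.1% and 14.0% of all genes tested. In lean mice 2 rose and 2 fell. Akt1 (-0.49 ± 0.08) and Ptpn1, a phosphatase that restrains the insulin receptor (-0.76 ± 0.17), were also lower in the older lean mice (-0.28 and -0.65). Of 21 cell division genes 1, Pcna, was called lower, although the median was -0.95 in regression mice and -0.92 in lean mice.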
